A study of Homo sapiens with 10 samples.

Results

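The translation initiation factor genes encode the proteins that bring the initiator tRNA, the small ribosomal subunit and the mRNA together at the start codon. They were taken as the protein-coding genes of GENCODE 44 whose symbol begins with EIF and a digit from 1 to 6. Of 56 such genes, 8 were left out: EIF4A3, which works in splicing-linked mRNA marking, the 4 eIF2 kinase genes of the EIF2AK series, and 3 genes on chromosomes X and Y. The remaining 48 genes, of 63254 genes in the count tables, were all listed there and were sorted into 10 groups by the factor complex they belong to. The cells were U2OS, a human osteosarcoma line grown in DMEM with 10% FBS, so each value describes 1 cell line. One group of 5 libraries (siCtrl) came from cells given a control siRNA pool and the other 5 libraries (siDDX41) from cells given a pool of siRNAs against DDX41, a DEAD-box RNA helicase gene. In both groups knockdown lasted 48 h and polyA RNA was sequenced, and the comparison of siDDX41 with siCtrl asks which initiation factor transcripts changed when DDX41 was depleted. Each library held between 21807041 and 24896398 counted reads. The labels do not say that the replicates were separate cultures, so p-values measure the spread between these libraries, which may be technical.

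Levels are given in CPM, with library sizes scaled by the TMM factors of edgeR. DDX41 was at 49.1, 49.4, 47.3, 47.2 and 50.5 CPM in the siCtrl libraries and at 11.5, 13.7, 12.4, 11.2 and 12.3 CPM in the siDDX41 libraries. Every siDDX41 library was below every siCtrl library, and DDX41 had a log2 fold change of -1.99 (SE 0.049, adjusted p = 4.47e-24), or 25.1% of the control level. In bulk RNA, fewer cells of a kind and less RNA per cell cannot be told apart, here and for the genes that follow. Among mesenchymal markers, COL1A1 was at 1875 ± 100.3 CPM (SD, n = 5) in siCtrl and 1766 ± 94.6 CPM in siDDX41, SPARC at 2807 ± 32.8 and 3181 ± 96.5 CPM, and VIM at 2465 ± 51.0 and 2321 ± 37.8 CPM. RUNX2, a transcription factor of the osteoblast lineage, was at 32.4 ± 1.25 CPM in siCtrl and 24.6 ± 0.827 CPM in siDDX41, and ALPL was at 5.01 ± 0.811 CPM and 3.08 ± 0.491 CPM. Of this list of 7, SP7 and COL1A2 were near 0, with 4 and 91 reads over the 10 libraries. The summed level of the 3 epithelial markers lay between 8.34 and 10.4 CPM per library, most of it EPCAM. The mitochondrial share of reads was 1.50, 1.13, 1.49, 1.69 and 1.43% in siCtrl and 2.29, 2.07, 2.07, 2.00 and 2.00% in siDDX41, so these groups did not overlap. Its part in the results was not tested.

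As background, initiation starts when eIF2, carrying GTP and the initiator tRNA, joins the small subunit together with eIF1, eIF3 and eIF5, while eIF2B recharges eIF2 with GTP after each round. The mRNA is brought in by eIF4F, made of the cap-binding protein eIF4E, the scaffold eIF4G and the helicase eIF4A, and the eIF4E-binding proteins hold eIF4E away from eIF4G when mTORC1 activity is low. Growing cells depend on these steps for most of their protein synthesis, and both eIF2 and eIF4E are points at which stress and nutrient signals act on it.

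Of the 48 genes, 43 passed the filter on low counts and were tested with all other genes. At an adjusted p under 0.01, 23 of the 48 were called higher in siDDX41, which is 53.5% of the 43 tested, beside 30.3% of the 16143 genes tested. Called lower were 10 of the 48, or 23.3% of the 43 tested, beside 32.1% of the genes tested. A further 10 were tested and not called, and 5 were not tested. A large part of all genes thus differed between siDDX41 and siCtrl, and the calls on initiation factors are read against that. The median log2 fold change of the 43 tested genes was 0.16, beside -0.00 for all tested genes. These genes were also measured with more reads than most, with a median level of 110.2 CPM in siCtrl beside 20.4 CPM for all tested genes. With a log2 fold change beyond 0.25 asked for as well, 15 of the 43 tested were called higher (34.9%), beside 21.1% of genes tested, and 7 of the 43 were called lower (16.3%), beside 25.4%. The siCtrl and siDDX41 libraries did not overlap for 29 of the 43 tested members, beside 55.9% of all tested genes. The members did not move as one: log2 fold changes ran from -0.86 for EIF4G2 to 0.90 for EIF5A2. Summed over all 48 genes, the mean level was 9920.2 CPM in siCtrl and 9913 CPM in siDDX41. The sum takes EIF4A1, EIF3C and EIF3K at the low levels listed for them, and leaves out genes on chromosomes X and Y.

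The tested genes of eIF2 rose, as did EIF1, EIF1B and EIF1AD. EIF2S2, the beta subunit of eIF2 that contacts eIF5 and eIF2B, was at 110.3, 113, 107, 113 and 107 CPM in siCtrl and at 169.8, 160.2, 166, 169.5 and 169 CPM in siDDX41. All siDDX41 libraries were above all siCtrl libraries, with a log2 fold change of 0.60 (SE 0.029, adjusted p = 2.66e-17). EIF2S1, the alpha subunit whose phosphorylation slows initiation, had a smaller log2 fold change of 0.26. Both tested eIF2 genes were called higher, beside 30.3% of all genes tested. The retrogene EIF2S3B, with 37 reads over the 10 libraries, was not tested. EIF1, which guards start codon choice, moved little, from 392 ± 2.45 CPM (SD, n = 5) to 419 ± 8.01 CPM, with a log2 fold change of 0.10 (SE 0.024, adjusted p = 9.26e-04). Its close relative EIF1B was at 35.7, 30.7, 33.6, 33.8 and 31.7 CPM in siCtrl and 44.9, 43.9, 46.4, 44.5 and 41.8 CPM in siDDX41, with a log2 fold change of 0.42 (SE 0.043, adjusted p = 5.51e-10). EIF1AD, a protein with an eIF1A-like fold, was at 37.5, 37.3, 37.1, 36.1 and 35.7 CPM in siCtrl and 52.0, 48.7, 51.3, 51.2 and 49.2 CPM in siDDX41. The ranges of these genes did not overlap between the groups, and EIF1AD had a log2 fold change of 0.46 (SE 0.036, adjusted p = 2.88e-12).

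Within eIF2B, the exchange factor of eIF2, 3 of 5 subunits were called higher, 1 lower and 1 not called. That is 60% higher and 20% lower, beside 30.3% and 32.1% of all genes tested. The catalytic subunit EIF2B5 was at 88.5, 82.1, 86.4, 83.6 and 86.4 CPM in siCtrl and 106, 109, 105, 111 and 108 CPM in siDDX41, without overlap and with a log2 fold change of 0.33 (SE 0.030, adjusted p = 5.24e-11). EIF2B4, a regulatory subunit, went the other way, from 63.5, 62.0, 60.5, 60.5 and 65.4 CPM to 56.5, 60.8, 54.0, 55.8 and 57.4 CPM. The groups overlapped for EIF2B4, which had a log2 fold change of -0.13 (SE 0.036, adjusted p = 0.00186) and was no longer called without siDDX41 replicate 3, with a log2 fold change of -0.11 (adjusted p = 0.0117). EIF2B1 had a log2 fold change of 0.25 and shares 14.8% of its exon bases with DDX55 on the other strand, whose reads came to 52.1% of its own, and EIF2B3 one of 0.16. EIF2B2, which was not called, had one of -0.05 (adjusted p = 0.258). Of the factors that can deliver initiator tRNA without eIF2, EIF2D was called lower at a log2 fold change of -0.14 (SE 0.035, adjusted p = 6.82e-04), and EIF2A, at -0.06 (adjusted p = 0.0870), was not called.

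In eIF3, the scaffold on the small subunit, the subunits outside the PCI/MPN octamer were all called higher, 5 of 5. This stands beside 30.3% of all genes tested. EIF3J, the loosely bound subunit at the mRNA entry channel, was at 118, 122, 116, 121 and 118 CPM in siCtrl and 169, 156, 172, 163 and 161 CPM in siDDX41, with a log2 fold change of 0.46 (SE 0.030, adjusted p = 2.46e-14). EIF3D, which can bind the cap itself, was at 321, 323, 305, 311 and 306 CPM in siCtrl and 413, 391, 416, 425 and 425 CPM in siDDX41, with a log2 fold change of 0.40 (SE 0.028, adjusted p = 1.21e-13). EIF3B, a scaffold subunit with WD40 repeats, and EIF3G and EIF3I, which bind to it, had log2 fold changes of 0.38, 0.40 and 0.23. For all 5 genes each siDDX41 library was above each siCtrl library, where 55.9% of all tested genes had groups that did not overlap. EIF3J shares 5.98% of its exon bases with SPG11 on the other strand, whose reads came to 40.6% of its own. EIF3I shares 4.97% with MTMR9LP and 1.91% with TMEM234, and EIF3G 3.33% with P2RY11. Their summed level was 1472, 1459.5, 1389, 1436 and 1422 CPM in siCtrl and 1853, 1768, 1869, 1867 and 1882 CPM in siDDX41.

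The 9 genes of the octamer, the core on which the others sit, did not move in 1 direction. Of them, 3 were called higher, 1 lower, 3 were not called and 2 were not tested. For the octamer that is 42.9% higher and 14.3% lower of the 7 tested, beside 30.3% and 32.1% of all genes tested. EIF3A, its largest subunit, was at 345, 321, 364, 364 and 340.4 CPM in siCtrl and 405, 390.2, 398, 396 and 396 CPM in siDDX41, with a log2 fold change of 0.19 (SE 0.030, adjusted p = 1.25e-06). EIF3H and EIF3M, the other members called higher, had log2 fold changes of 0.17 and 0.16. EIF3L was the member called lower, at 388, 388, 393, 391 and 382 CPM in siCtrl and 304, 312, 303, 316 and 319 CPM in siDDX41. Its groups did not overlap and it had a log2 fold change of -0.32 (SE 0.025, adjusted p = 1.92e-12); it shares 10.7% of its exon bases with ANKRD54 on the other strand and 41.1% with a lncRNA gene on the same strand, whose reads came to 13.9% and 0.888% of its own. EIF3E, EIF3F and EIF3C were not called, with log2 fold changes of 0.05, 0.07 and -0.03. EIF3F, at an adjusted p of 0.0332, was called higher under upper-quartile scaling (log2 fold change 0.08, adjusted p = 0.00764). The summed level of the octamer genes was 1958, 1929, 1983, 1986 and 1928 CPM in siCtrl and 2026, 1959, 2009.8, 2044 and 2044 CPM in siDDX41, ranges that overlapped. This sum takes EIF3C and EIF3K at the low levels listed for them.

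**Figure D1:**
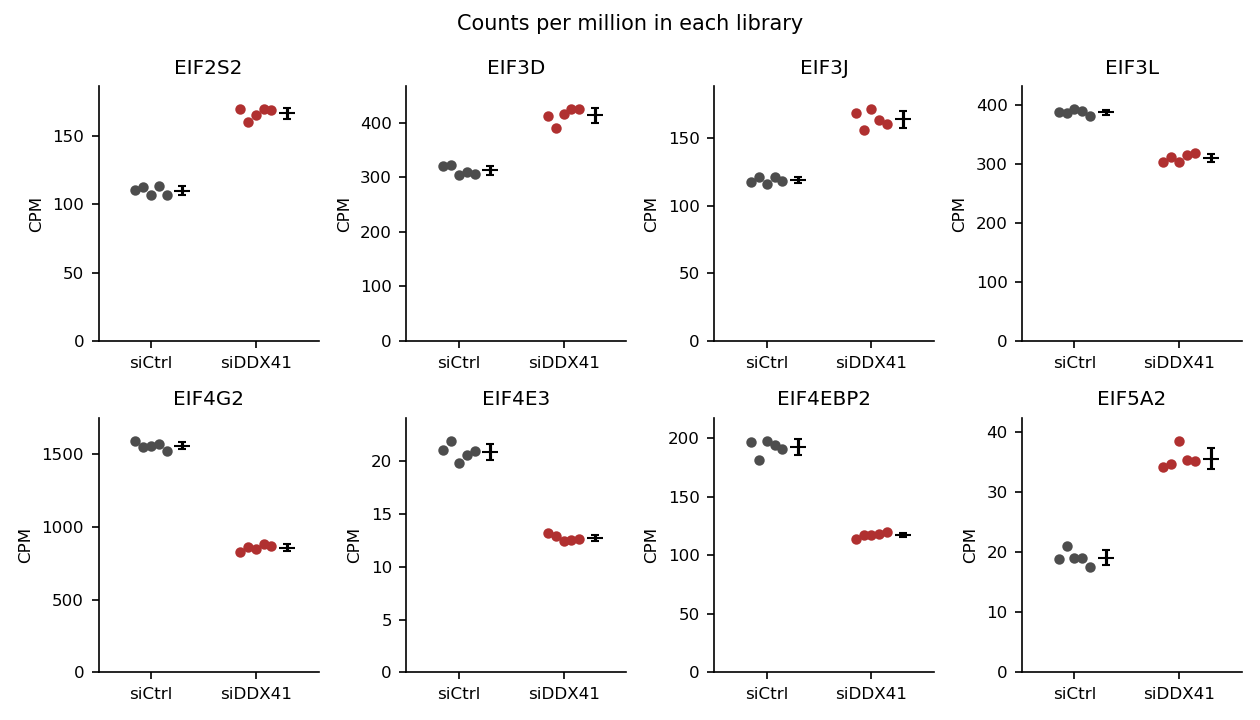
CPM in each of the 10 libraries for 8 initiation factor genes, with points for libraries and a bar for the mean and SD of each group; each axis starts at 0. The 8 genes shown are all called members whose siCtrl and siDDX41 libraries do not overlap, as for 55.9% of all tested genes. EIF4G2 lies at 1523 CPM or more in siCtrl and 887 CPM or less in siDDX41.

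The eIF4F group, with its cofactors, held the largest fall among the members. EIF4G2, also known as DAP5, is an eIF4G relative that lacks the eIF4E-binding part and serves cap-independent and reinitiation events. It was at 1594, 1553, 1558, 1568 and 1523 CPM in siCtrl and at 827, 861, 852, 887 and 868 CPM in siDDX41. Every siDDX41 library was far below every siCtrl library, and the change was a log2 fold change of -0.86 (SE 0.025, adjusted p = 1.57e-22), or 55.1% of the control level. The main scaffolds fell less: EIF4G1 was at 739.7, 716, 717, 726 and 726 CPM and 604, 641, 621, 638 and 652 CPM, with a log2 fold change of -0.20 (SE 0.025, adjusted p = 4.57e-08). EIF4G3, at 80.0 ± 5.41 CPM (SD, n = 5) and 63.9 ± 3.59 CPM, had a log2 fold change of -0.33 (SE 0.044, adjusted p = 6.34e-07). Of the group's 11 genes, 5 were called lower, 3 higher and 2 not. That is 50% lower and 30% higher of the 10 tested, beside 32.1% and 30.3% of all genes tested. The germline-type EIF4E1B, with 2 reads over the 10 libraries, was not tested. The summed level of the group was 3891, 3768, 3812, 3831 and 3766 CPM in siCtrl and 2923, 2986, 2963, 3054 and 3043 CPM in siDDX41. EIF4G2 made up 40.9% of that sum in siCtrl and 28.7% in siDDX41, with EIF4A1 taken at the low level listed for it.

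The cap-binding genes differed among themselves. EIF4E, the main cap-binding protein, was not called, at 51.9, 53.5, 47.7, 51.6 and 48.9 CPM in siCtrl and 53.6, 51.3, 51.6, 54.4 and 53.4 CPM in siDDX41 (log2 fold change 0.06, adjusted p = 0.151). EIF4E2, or 4EHP, which competes for caps and is mostly known as a repressor, was at 111, 109, 111, 112 and 106 CPM in siCtrl and 145, 134, 145, 143 and 148 CPM in siDDX41. EIF4E3, a less abundant cap-binding relative, was at 21.0, 21.9, 19.8, 20.5 and 20.9 CPM in siCtrl and 13.2, 12.9, 12.5, 12.5 and 12.6 CPM in siDDX41. Neither of these genes had overlapping groups, and EIF4E2 rose with a log2 fold change of 0.38 (SE 0.030, adjusted p = 2.27e-12) while EIF4E3 fell with a log2 fold change of -0.71 (SE 0.051, adjusted p = 2.69e-13). EIF4E3 shares 2.77% of its exon bases with GPR27 on the other strand, whose reads came to 53.0% of its own.

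Of the helicase genes, EIF4A2 was at 474, 469, 478, 474 and 470.2 CPM in siCtrl and 370.4, 391, 370.1, 378 and 374 CPM in siDDX41, without overlap and with a log2 fold change of -0.33 (SE 0.025, adjusted p = 9.31e-13). EIF4A1, usually the major eIF4A, was listed at only 7.43, 6.08, 6.98, 5.90 and 6.25 CPM in siCtrl and 7.59, 8.82, 8.63, 8.43 and 7.41 CPM in siDDX41. The groups overlapped and the gene was called higher at a log2 fold change of 0.32 (SE 0.080, adjusted p = 6.68e-04). Its counts are uncertain: 42.1% of its exon bases belong as well to a lncRNA gene and 28.2% to the read-through gene SENP3-EIF4A1, both on the same strand, and how reads in shared exons were treated is not given in the sources used here. The helicase cofactor EIF4H rose, from 272, 261, 261, 261 and 262 CPM in siCtrl to 327, 301, 327, 329.6 and 329 CPM in siDDX41, with a log2 fold change of 0.29 (SE 0.028, adjusted p = 1.47e-10). The other cofactor, EIF4B, was at 525 ± 10.6 CPM (SD, n = 5) and 523 ± 12.7 CPM and was not called (log2 fold change -0.00, adjusted p = 0.880).

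Both tested genes for the classical inhibitors of eIF4E were called lower, beside 32.1% of all genes tested. EIF4EBP2 was at 197, 181, 198, 194 and 191 CPM in siCtrl and 114, 118, 117, 118 and 119.7 CPM in siDDX41, with a log2 fold change of -0.71 (SE 0.029, adjusted p = 5.18e-19). EIF4EBP1 was at 58.2, 58.2, 50.5, 55.0 and 56.5 CPM in siCtrl and 41.9, 41.3, 44.9, 43.8 and 46.7 CPM in siDDX41, with a log2 fold change of -0.35 (SE 0.042, adjusted p = 1.69e-08). No siDDX41 library reached the lowest siCtrl library for either gene. The third family gene, EIF4EBP3, was listed at 5 reads over the 10 libraries and not tested; 73.2% of its exon bases belong as well to the read-through gene ANKHD1-EIF4EBP3. EIF4ENIF1, which carries eIF4E into the nucleus, was not called (log2 fold change 0.08, adjusted p = 0.0370).

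At the later steps, EIF5, which triggers GTP hydrolysis on eIF2, rose from 266, 267, 257, 266 and 256 CPM in siCtrl to 315, 292, 319.8, 319 and 304 CPM in siDDX41, with a log2 fold change of 0.24 (SE 0.028, adjusted p = 1.08e-08). EIF5B, which joins the ribosomal subunits and shares 10.8% of its exon bases with REV1 on the other strand (reads 25.6% of its own), was called at a log2 fold change of 0.09 (SE 0.030, adjusted p = 0.00765), and this call was lost when libraries were scaled by total counts alone (log2 fold change 0.08, adjusted p = 0.0152) and without siCtrl replicate 1, 2 or 5 or siDDX41 replicate 1 or 5 (0.07 to 0.09). EIF6, which keeps the large subunit apart, was not called (log2 fold change -0.02, adjusted p = 0.594). Of the 3 eIF5A genes, for a factor carrying the modified residue hypusine, 2 were called higher, beside 30.3% of all genes tested. EIF5A was at 436, 450.4, 397, 421 and 413 CPM in siCtrl and 599, 528, 589, 572 and 587 CPM in siDDX41, with a log2 fold change of 0.44 (SE 0.034, adjusted p = 3.38e-11). Its relative EIF5A2, better known from tumours and testis, was at 18.9, 21.1, 19.0, 19.0 and 17.6 CPM in siCtrl and 34.1, 34.7, 38.5, 35.4 and 35.1 CPM in siDDX41. This was the largest rise among the members, a log2 fold change of 0.90 (SE 0.049, adjusted p = 5.05e-16), and no libraries overlapped. EIF5AL1, an intronless copy that can share reads with EIF5A, was at 0.735, 0.653, 0.631, 0.471 and 0.458 CPM in siCtrl and 0.874, 0.738, 1.13, 0.639 and 0.894 CPM in siDDX41 and was not called (log2 fold change 0.53, adjusted p = 0.0313).

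Related factors were then compared within each library, as the log2 ratio of their counts, where the scaling of libraries cancels. All 9 pairs passed the two-sided exact permutation test at an adjusted p under 0.05. In 8 pairs the groups did not overlap and the exact permutation p was 0.00794, the smallest that 5 against 5 libraries allow (adjusted p = 0.00893). Of all tested genes, 55.9% had groups that did not overlap, and pairs of other genes were not tested. The ratios use the same counts as the calls on single genes and are not separate evidence. The log2 ratio of EIF4G2 to EIF4G1 was 1.11, 1.12, 1.12, 1.11 and 1.07 in siCtrl and 0.45, 0.43, 0.46, 0.47 and 0.41 in siDDX41, a difference of -0.66. EIF4G2 thus fell more than EIF4G1, and no library of a group reached the range of the other. For EIF4E3 to EIF4E the log2 ratio was -1.30, -1.29, -1.26, -1.33 and -1.22 in siCtrl and -2.02, -1.99, -2.05, -2.12 and -2.08 in siDDX41, a difference of -0.77. EIF4E2 moved against EIF4E in the opposite direction, by 0.32. The log2 ratio of EIF4EBP2 to EIF4EBP1 was 1.76, 1.64, 1.97, 1.82 and 1.76 in siCtrl and 1.44, 1.51, 1.39, 1.43 and 1.36 in siDDX41, a difference of -0.36. So EIF4EBP2 fell more than EIF4EBP1. EIF5A2 gained on EIF5A by 0.46, EIF1B on EIF1 by 0.33 and EIF4H on EIF4B by 0.30, each a difference of mean log2 ratios. EIF4A2 to EIF4A1 changed by -0.65, with the doubt over EIF4A1 counts given with that gene. The pair EIF4G3 to EIF4G1 overlapped between groups and differed by -0.12 (exact permutation p = 0.0476, adjusted p = 0.0476), and its call was lost without replicate 1, 3, 4 or 5 of either group (differences of -0.13 to -0.10).

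**Figure D2:**
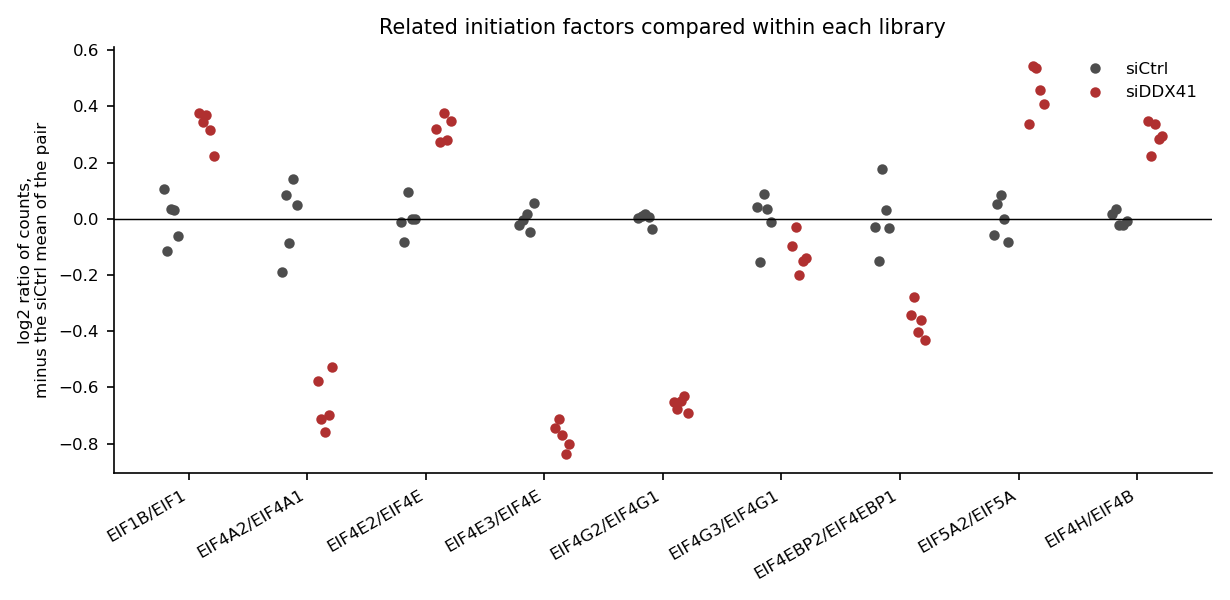
Log2 ratio of the counts of 9 pairs of related factors in each library, minus the siCtrl mean of the pair, with 1 point for each library. The siDDX41 points of EIF4G2/EIF4G1 lie around -0.66 and those of EIF5A2/EIF5A around 0.46, while those of EIF4G3/EIF4G1 overlap the siCtrl points.

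Levels of different genes were compared as CPM per kb of the canonical transcript. In siCtrl, EIF4G2 had the highest level of eIF3 and eIF4F genes at 411 CPM per kb, ahead of EIF4A2 at 251, EIF3E at 227 and EIF3I at 221 CPM per kb. In siDDX41, EIF4G2 stood at 226 CPM per kb, below EIF3I at 259.9, EIF3B at 255 and EIF3E at 235 CPM per kb. EIF4G1 went from 134 to 117 CPM per kb, and EIF4E, at 20.9 CPM per kb in siCtrl, was below EIF4G1 and above EIF4G3, at 12.5 CPM per kb. EIF5A, at 335 CPM per kb in siCtrl and 455 in siDDX41, was far above EIF5A2, at 3.45 and 6.43 CPM per kb. Some subunits of one complex were listed far below their partners. EIF3C, a core subunit of the octamer, was at 2.46 CPM per kb in siCtrl, EIF4A1 at 3.71, and EIF3K had 3 reads in all 10 libraries together. EIF3C has a near-identical copy, EIF3CL, listed at 2 reads. Among genes outside the members that every cell uses, EEF1B2 and EEF1G were also listed at 3 and 0 reads over the 10 libraries. These values are therefore given only as listed, and the reason was not tested. In all, 24 of the 48 genes share exon bases with another gene. Beside those given with their genes, shares above 5% were 20.2% for EIF2B2, 17.3% for EIF6, 12.4% for EIF4B, 10.4% for EIF4E2, 8.98% for EIF5A, 7.72% for EIF4ENIF1 and 7.10% for EIF4A2. The genes sharing these bases had between 0.114 and 1.66% as many reads as the member. Smaller shares with more abundant genes on the other strand included 4.27% of EIF2A with SERP1 and 0.772% of EIF2B1 with GTF2H3. Reads of SERP1 came to 103% and those of GTF2H3 to 62.4% of the member's own. EIF4ENIF1 also shares 0.951% with SFI1 (reads 49.96%) and EIF4A2 0.294% with RFC4 (reads 16.7%), both on the other strand. Besides EIF3K and EIF3CL, the members that were not tested were EIF2S3B, EIF4E1B and EIF4EBP3.

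**Figure D3:**
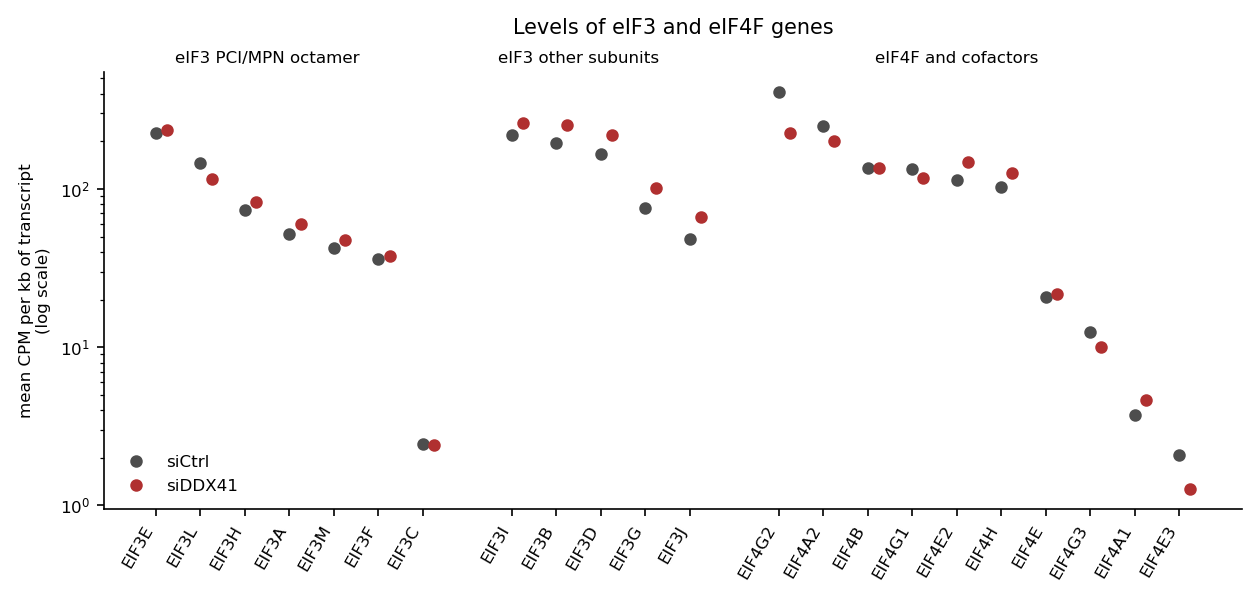
Mean level of the eIF3 and eIF4F genes with more than a trace of reads, as CPM per kb of canonical transcript on a log axis, for siCtrl and siDDX41. EIF4G2 drops from 411 to 226 CPM per kb, and EIF3C, EIF4A1 and EIF4E3 lie lowest in siCtrl, at 2.46, 3.71 and 2.09 CPM per kb.

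Promoter windows from RefSeq (GRCh38.p14, 250 bases before to 50 after each start) were read for 40 of the 48 genes, with 56 windows in all because some genes have several starts. The set holds no window for EIF2S2, EIF3A, EIF3CL, EIF3E, EIF3G, EIF3H, EIF3L and EIF4EBP1. They were searched for the E-box CACGTG, a site form bound by MYC and related factors, and TGATGNAA, the form of the C/EBP-ATF response element bound by ATF4, both on either strand. They were also searched for a run of at least 7 C or T on the sense strand touching the bases from 5 before to 10 after the start, similar to the 5' terminal oligopyrimidine tract of mRNAs under mTORC1 control. CACGTG was in 10 of 56 windows (17.9%), beside 8.91% of windows of tested genes and 7.26% of all 35116 windows. TGATGNAA was in 1 of 56 (1.79%), beside 2.16% and 3.62%, and the run was in 16 of 56 (28.6%), beside 17.9% and 17.9%. By call, CACGTG was in a window of 4 of 19 genes called higher, 1 of 8 called lower, 3 of 9 not called and 2 of 4 not tested. The run was found for 5 of 19 called higher, 4 of 8 called lower, 4 of 9 not called and 2 of 4 not tested. A match describes letters in the window and was not tested against the changes. The following stretches run from 250 before to 25 after the start, with each match in capitals, and were chosen after the values were seen. They show both matches of EIF5A2 and that of EIF1B to CACGTG, the runs of EIF3D, which rose, and EIF4A2, which fell, and the 1 match to TGATGNAA, in 1 of 3 windows of EIF4E3. They lie at chr3:170908613-170908887, minus strand for EIF5A2, chr3:40309457-40309731, plus strand for EIF1B, chr22:36529142-36529416, minus strand for EIF3D, chr3:186783327-186783601, plus strand for EIF4A2, and chr3:71729094-71729368, minus strand for EIF4E3.
EIF5A2: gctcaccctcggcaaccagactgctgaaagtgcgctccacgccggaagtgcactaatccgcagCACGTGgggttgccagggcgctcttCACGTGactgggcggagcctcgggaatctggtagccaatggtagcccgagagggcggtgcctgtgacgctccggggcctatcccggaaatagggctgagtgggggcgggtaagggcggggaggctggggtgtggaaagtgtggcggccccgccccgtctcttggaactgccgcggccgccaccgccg
EIF1B: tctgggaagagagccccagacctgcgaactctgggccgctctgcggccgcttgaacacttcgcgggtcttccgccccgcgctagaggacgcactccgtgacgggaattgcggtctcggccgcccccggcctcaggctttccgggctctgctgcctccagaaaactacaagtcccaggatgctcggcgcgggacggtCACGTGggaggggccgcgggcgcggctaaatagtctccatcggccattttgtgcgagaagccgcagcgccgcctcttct
EIF3D: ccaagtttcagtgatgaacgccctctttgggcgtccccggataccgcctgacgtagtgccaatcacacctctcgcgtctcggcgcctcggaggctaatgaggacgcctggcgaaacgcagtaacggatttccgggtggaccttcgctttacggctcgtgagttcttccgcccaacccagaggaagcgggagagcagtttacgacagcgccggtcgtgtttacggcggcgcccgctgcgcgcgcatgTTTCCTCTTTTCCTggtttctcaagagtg
EIF4A2: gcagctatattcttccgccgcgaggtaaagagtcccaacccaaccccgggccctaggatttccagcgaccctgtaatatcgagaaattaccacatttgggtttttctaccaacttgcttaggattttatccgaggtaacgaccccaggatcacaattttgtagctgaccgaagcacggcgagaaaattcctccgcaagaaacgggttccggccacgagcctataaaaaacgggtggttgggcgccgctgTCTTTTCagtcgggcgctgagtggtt
EIF4E3: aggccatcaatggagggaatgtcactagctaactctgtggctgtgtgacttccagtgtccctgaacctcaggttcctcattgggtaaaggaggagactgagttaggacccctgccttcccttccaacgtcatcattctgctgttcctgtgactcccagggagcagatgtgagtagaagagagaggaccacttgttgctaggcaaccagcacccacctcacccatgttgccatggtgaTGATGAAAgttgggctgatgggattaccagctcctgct
The matches in EIF5A2 begin 187 and 162 bases before the start, and that in EIF1B 54 bases before it. The run of EIF3D is 14 bases long and begins 4 bases before the start, and that of EIF4A2 is 7 bases long and begins 1 base before it.

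Around initiation, 48 further genes of translation control were read in 5 lists: 19 were called higher and 12 lower, or 42.2% and 26.7% of the 45 tested, beside 30.3% and 32.1% of the genes tested. With a log2 fold change beyond 0.25 asked for as well, 9 (20%) were called higher and 8 (17.8%) lower. All tested genes then gave 21.1% and 25.4%. Among 15 accessory genes of initiation, 7 were called higher and 2 lower, or 50% and 14.3% of the 14 tested. All genes tested gave 30.3% and 32.1%. PAIP1, which links poly(A)-binding protein to eIF4F, fell from 101 ± 1.63 CPM (SD, n = 5) to 80.7 ± 2.48 CPM, with a log2 fold change of -0.32 (SE 0.030, adjusted p = 1.73e-10). PDCD4, an inhibitor of eIF4A, rose, with a log2 fold change of 0.28 (SE 0.034, adjusted p = 1.85e-08). Of 9 genes around eIF2 phosphorylation, 3 were called higher and 3 lower, or 33.3% each, near the 30.3% and 32.1% of all genes tested. PPP1R15A, or GADD34, the stress-induced subunit that directs dephosphorylation of eIF2, was at 35.1, 33.6, 33.1, 31.8 and 32.7 CPM in siCtrl and 53.9, 55.8, 55.3, 51.6 and 51.1 CPM in siDDX41, with a log2 fold change of 0.69 (SE 0.039, adjusted p = 1.39e-15). The eIF2 kinase gene EIF2AK3, or PERK, was at 50.3 ± 2.69 CPM (SD, n = 5) in siCtrl and 39.9 ± 2.67 CPM in siDDX41, with a log2 fold change of -0.33 (SE 0.045, adjusted p = 1.40e-07). The siCtrl and siDDX41 libraries did not overlap for either gene.

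Of 11 genes of mTORC1 and of the eIF4E kinases, 6 were called higher (54.5%) and 2 lower (18.2%). All genes tested gave 30.3% and 32.1%. RPS6KB2, an S6 kinase, had a log2 fold change of 0.46 (SE 0.039, adjusted p = 9.52e-12), and MKNK2, a kinase of eIF4E, had a log2 fold change of -0.37 (SE 0.041, adjusted p = 3.08e-09). Of 9 elongation and hypusination genes, 4 were called lower, 3 were not called and 2 were not tested. Called lower were thus 57.1% of those tested and called higher 0%, beside 32.1% and 30.3% of all genes tested. EEF1A2, a tissue-restricted form of the tRNA-delivering factor, was at 312, 349, 285, 299 and 319 CPM in siCtrl and 163, 163, 170.1, 171 and 175 CPM in siDDX41, with a log2 fold change of -0.89 (SE 0.043, adjusted p = 1.84e-12). EEF2, the translocation factor, was at 1579.9, 1757, 1493, 1522 and 1652 CPM in siCtrl and 879, 967, 949, 937 and 971 CPM in siDDX41, with a log2 fold change of -0.77 (SE 0.040, adjusted p = 8.00e-12). EEF2K, the kinase that inhibits EEF2, and EEF1A1 had log2 fold changes of -0.60 and -0.32, and for these 4 genes the groups did not overlap, as for 55.9% of all tested genes. DHPS and DOHH, the enzymes that make hypusine on eIF5A, were not called (log2 fold changes 0.10 and 0.28, adjusted p = 0.0195 and 0.0163). At termination, ETF1, which reads the stop codon, was at 151, 147, 144, 147 and 142 CPM in siCtrl and 96.7, 93.0, 94.0, 98.5 and 90.0 CPM in siDDX41, with a log2 fold change of -0.63 (SE 0.030, adjusted p = 2.18e-17). Its GTPase partner GSPT1 was called higher, from 191 ± 5.67 CPM (SD, n = 5) to 243 ± 12.3 CPM, with a log2 fold change of 0.35 (SE 0.032, adjusted p = 4.92e-11). In this list 3 of 4 were called higher (75%) and 1 lower (25%), beside 30.3% and 32.1% of all genes tested.

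**Figure D4:**
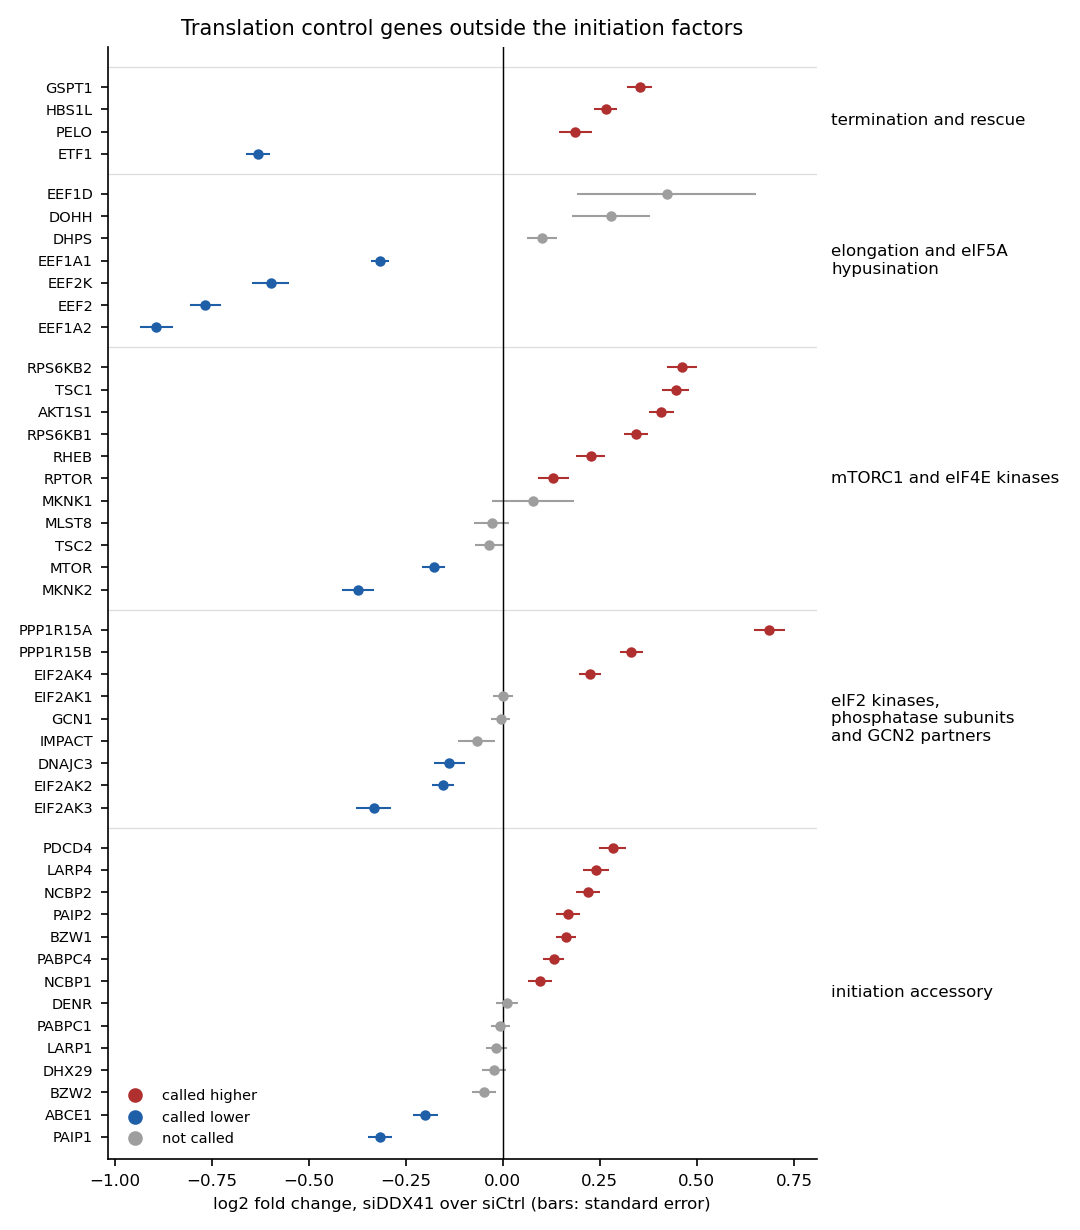
Log2 fold change, siDDX41 over siCtrl, of the tested genes of 5 translation control lists, with bars for the standard error and colour for the call at an adjusted p under 0.01. PPP1R15A lies at 0.69, and EEF1A2, EEF2 and ETF1 at -0.89, -0.77 and -0.63.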

How the data were processed

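The authors deposited 1 table of read counts per gene for each library. Per the submitters' processing notes, demultiplexing used bcl2fastq 2.19, mapping STAR 2.7 against hg38 with the Gencode 25 annotation, and counting featureCounts 1.6. The paper names a stranded mRNA kit for library preparation. The strand setting of the counting step and the treatment of multi-mapping reads are not given in the sources used here. Of 63254 genes, 56948 matched a GENCODE 44 gene ID (90.0%). Exon overlaps and canonical transcript lengths came from that annotation. These lengths replaced merged exon lengths after values per kb had been seen. CPM divides counts by the TMM-scaled library size, and all 10 libraries were used.

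Counts were filtered with filterByExpr, scaled by TMM and tested with the quasi-likelihood test of edgeR 4.0.16 in R 4.3.3, with group as the sole term and Benjamini-Hochberg adjustment over all 16143 tested genes. Genes were called at an adjusted p under 0.01, and SE is the absolute log2 fold change over the square root of F. Related factors were compared with a pseudocount of 0.5 by exact permutation over 9 pairs. Alternatives were other scalings, low-count filters and thresholds, DESeq2 1.42.0, limma 3.58.1, a replicate block, and each library left out in turn. Python 3.11.15 was used for tables. The edgeR and permutation tests were tested on simulated data, and the outcome is not given here. The 20 pairs of libraries within a group differed by 1.85 to 6.29 chi-square units per degree of freedom, above sampling noise, and the biological coefficient of variation was 3.65%.

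The members and lists were chosen with earlier results of these data known. Named genes were DDX41, the genes of the pairs, the called genes with the most positive and most negative change in each complex or list, and called members with an absolute log2 fold change of at least 0.5. Other genes named with a value fall outside that rule and were chosen after their values were seen.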

Additional observations from a re-analysis of the deposited data

Results flagged for a closer look

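Of 90 sets of 5 libraries (1 measure in 1 group), 5 held a value far from the others, and chance gives about 1 in 20 sets. EIF5A2 was highest in siDDX41 replicate 3, at 38.5 CPM, against 34.1 to 35.4 CPM in the others. EIF4H was highest of its group in siCtrl replicate 1, at 272 CPM, against 260.6 to 262 CPM in the others. It was lowest of its group in siDDX41 replicate 2, at 301 CPM, against 327 to 329.6 CPM. The log2 ratio of EIF4G2 to EIF4G1 was lowest of its group in siCtrl replicate 5, at 1.07, against 1.11 to 1.12. The mitochondrial share was highest in siDDX41 replicate 1, at 2.29%, against 2.00 to 2.07%. For each of these measures the siCtrl and siDDX41 libraries still did not overlap.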

How the results depend on the processing

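Over 3 other scalings, 2 other low-count filters, DESeq2 and limma-voom, 22 to 24 members were called higher and 10 lower. Of all genes, 13251 to 32705 were then tested, 4307 to 5128 called higher and 4599 to 5478 lower. The same 10 members were called lower throughout. Among members called higher, only EIF5B was lost (scaling by total counts, filter of at least 1 CPM) and only EIF3F gained (upper-quartile scaling). An adjusted p under 0.05 gave 26 higher and 10 lower, beside 34.9% and 35.9% of all tested genes. Asking for a log2 fold change beyond 0.25 gave 15 higher and 7 lower, and the translation control lists gave 9 higher and 8 lower, since the rule removes small changes. For the lists this was 20% and 17.8% of the 45 tested, beside 21.1% and 25.4% of all tested genes. Under the other settings those lists gave 17 to 21 higher and 11 to 12 lower. With single libraries left out, 22 to 23 members were higher and 9 to 10 lower. Of the 16287 to 16361 genes then tested, 4648 to 4823 were called higher and 4968 to 5121 lower. EIF5B was lost without siCtrl replicate 1, 2 or 5 or siDDX41 replicate 1 or 5, and EIF2B4 without siDDX41 replicate 3, at -0.11. Leaving out EIF3C, EIF4A1, EIF5AL1, EIF3L, EIF3J, EIF2B1 and EIF5B gave 19 higher and 9 lower, beside 30.3% and 32.1% of all genes tested. These are 7 of the members with shared exons or a near-identical copy. This alternative and those for the lists were chosen after seeing the data. Of 630 alternatives for the named genes, 629 kept the call, and all called genes kept direction, while EIF4B, not called, lay between -0.02 and 0.01; DDX41 lay between -2.04 and -1.96. Without the pseudocount, all 9 log2 ratios kept direction and call. EIF4G3 to EIF4G1 lay between -0.16 and -0.10 with single libraries left out, and in 8 of 10 such tests missed the threshold (adjusted p up to 0.0873). Fewer libraries give fewer assignments, but the other pairs kept an adjusted p of 0.00893 in these permutation tests. The reason for the lost EIF4G3 to EIF4G1 call was not tested. Scaling moved the median log2 fold change of all genes between -0.01 and 0.02. Replicate numbers were not treated as pairs: correlations of same-number libraries averaged 0.0031 and those of others -0.0008. A replicate block gave 23 members higher and 10 lower, and 18 and 12 genes of the lists. It called 4790 of the 16143 tested genes higher and 5097 lower. The 5 untested members had 2 to 37 reads over 10 libraries, and the reason was not tested.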
